A study of Mus musculus with 6 samples.

Results

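The nuclear-encoded subunits of the respiratory chain were examined in endothelial cells sorted from mouse melanomas. Members were every gene whose symbol fits the naming of the complex I subunits (Nduf followed by a, b, c, s or v and a number), Sdha to Sdhd, Uqcr, Cox4 to Cox8 or Atp5. This rule gave 84 of the 24421 gene symbols counted, namely 37 of complex I, 4 of complex II, 8 of complex III, 18 of complex IV and 17 of complex V. The rule used names alone and no measured value. Tumours were of B16F0, a transplantable melanoma line, placed under the skin of C57BL/6 mice and grown for 17 days. One group received 15C4, an antibody that blocks LRG1, a secreted protein known to promote abnormal vessel growth, and the other IgG, both at 50 mg/kg every 3 days. Each group is represented by 3 libraries (15C4 1 to 3 and IgG 1 to 3), each prepared from endothelial cells collected by flow cytometry. The sources used here give no gate, age or sex, and it is not stated if each library came from a mouse of its own. The p-values below therefore reflect no more than library-to-library spread, part or all of which may be technical.

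The respiratory chain moves electrons from NADH (complex I) and succinate (complex II) through complex III and cytochrome c to oxygen at complex IV. Complexes I, III and IV pump protons across the inner mitochondrial membrane, and complex V, the ATP synthase, uses the resulting gradient to make ATP. Most subunits are encoded in the nucleus and imported, while a core set is encoded by mitochondrial DNA and was not analysed here. Endothelial cells are known for meeting most of their ATP demand by glycolysis, and their respiratory chain is known to be needed for proliferation.

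Total counts lay between 6392700 and 19572202 in libraries from 15C4 and between 5175600 and 11669085 in libraries from IgG. Levels below are CPM, the count scaled to a common library total, without further scaling unless they are called TMM-scaled. All 13 melanocyte markers were detected, and they summed to 25200 to 29500 CPM under 15C4 and 26000 to 30100 CPM under IgG. All 22 pan-endothelial markers were also detected, at 1670 to 3710 CPM under 15C4 and 239 to 3070 CPM under IgG, where 239 CPM was IgG 3. The melanocyte marker sum thus exceeded the endothelial marker sum in every library. The lists hold different genes, so these sums do not measure how much RNA came from each cell type. A respiratory chain transcript cannot be assigned to either cell type. In such bulk libraries, fewer cells of a type and less RNA per cell cannot be told apart.

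Transcripts of the respiratory chain made up between 2.58% and 4.70% of all counts in a library. Their summed level differed more among libraries of a group than between the group means. The 84 genes summed to 25762, 38383 and 46950 CPM in libraries from 15C4 and to 40930, 27154 and 44384 CPM in libraries from IgG. The lowest sums were thus 15C4 1 and IgG 2, 1 in each group, and the highest was 15C4 3. The group means were 37032 ± 10658 CPM under 15C4 and 37489 ± 9116 CPM under IgG (± SD over 3 libraries each; two-sided exact permutation p = 1). For 3 libraries against 3, the smallest p this test can give is 0.1.

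**Figure D1:**
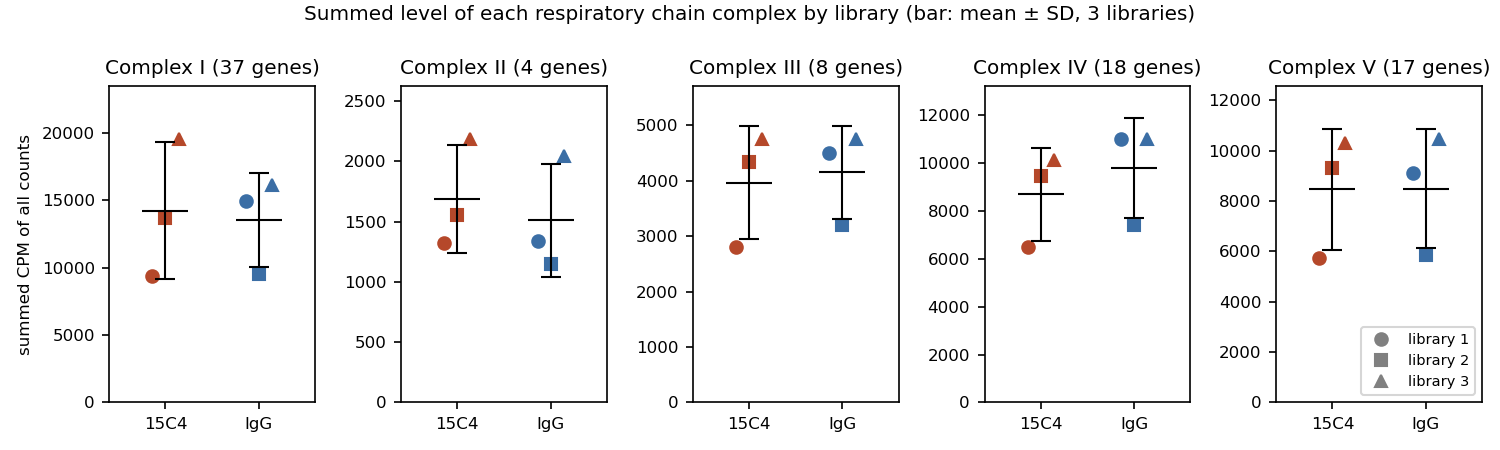
Summed CPM of all members of complexes I to V (vertical axes, each from 0), with 1 point per library, 15C4 left of IgG, the marker shape giving the library number and bars the mean ± SD of 3 libraries. In all 5 panels 15C4 1 and IgG 2 lie below the other libraries, with IgG 1 close to 15C4 1 in complex II, and the groups overlap in all 5 panels.

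15C4 1 and IgG 2 were the lowest libraries in each complex. Complex I, which takes electrons from NADH, summed to 9409, 13700 and 19556 CPM under 15C4 and to 14965, 9544 and 16100 CPM under IgG. Complex II, succinate dehydrogenase, summed to 1322, 1558 and 2187 CPM under 15C4 and to 1343, 1147 and 2040 CPM under IgG. Here IgG 1 was nearly as low as 15C4 1. Complex III, which hands electrons to cytochrome c, summed to 2811, 4332 and 4758 CPM under 15C4 and to 4501, 3194 and 4760 CPM under IgG. Complex IV, cytochrome c oxidase, summed to 6474, 9478 and 10132 CPM under 15C4 and to 11000, 7402 and 11016 CPM under IgG. Complex V summed to 5745, 9316 and 10318 CPM under 15C4 and to 9121, 5867 and 10469 CPM under IgG. Between the highest and the lowest library the sums differed 2.08-fold for complex I, 1.91-fold for II, 1.69-fold for III, 1.70-fold for IV and 1.82-fold for V.

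The difference between the treatments was small beside this spread. On the log2 scale, the mean sum under 15C4 over that under IgG was 0.07 for complex I, 0.16 for II, -0.07 for III, -0.17 for IV and -0.004 for V. Two-sided exact permutation p-values were 1, 0.6, 0.6, 0.5 and 1 in that order of complexes. With TMM-scaled sums the ratios were all higher, at 0.19, 0.27, 0.05, -0.065 and 0.11 for complexes I to V. The signs of complexes III and V thus depend on the scaling. The sign also depended on single libraries: the ratio of complex I was -0.23 without 15C4 3 and 0.30 without 15C4 1, and that of complex V was -0.21 without IgG 2 and 0.21 without 15C4 1. When 15C4 1 and IgG 2 were both left out, an alternative chosen after the values were seen, the ratios were 0.10, 0.15, -0.03, -0.17 and 0.003 for complexes I to V.

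In every library complex I held the largest share of the members' sum and complex II the smallest. Complex I made up 35.7% to 41.7% of the members' sum under 15C4 and 35.2% to 36.6% under IgG. Complex IV made up 21.6% to 25.1% under 15C4 and 24.8% to 27.3% under IgG, and complex V 21.98% to 24.27% under 15C4 and 21.6% to 23.6% under IgG. Complex II made up 4.06% to 5.13% under 15C4 and 3.28% to 4.60% under IgG.

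**Figure D2:**
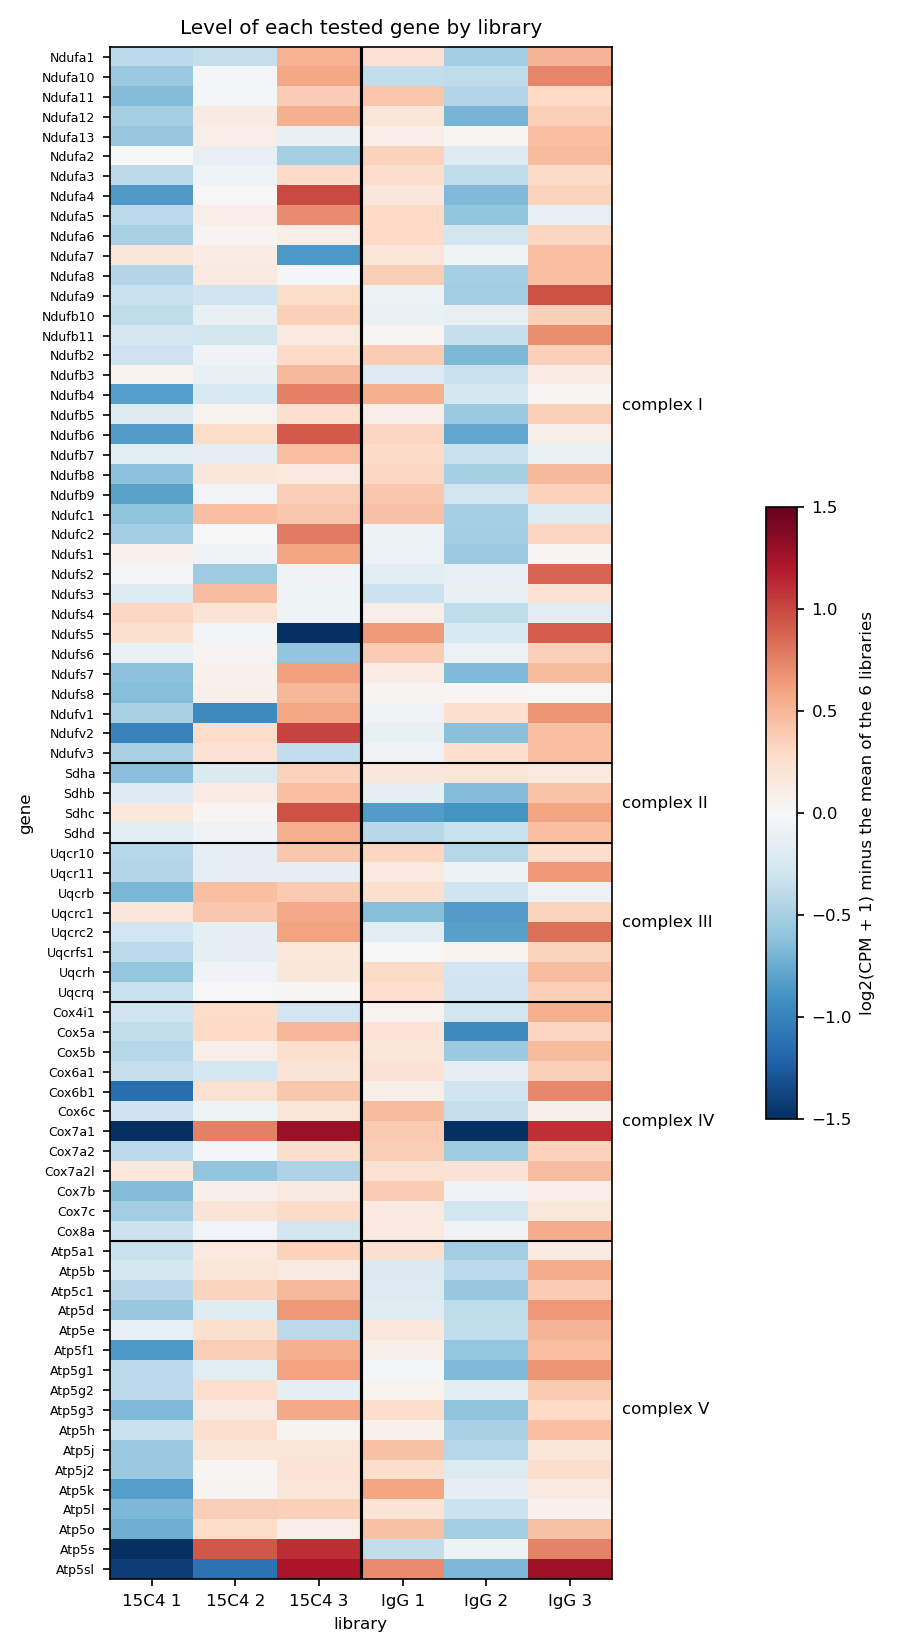
Level of the 77 tested genes (rows, by complex) in the 6 libraries (columns, 15C4 left of IgG), as log2(CPM + 1) minus the gene's mean over the 6 libraries. Columns 15C4 1 and IgG 2 are mostly blue (low), and 15C4 3 and IgG 3 are mostly red (high).

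Low levels in 15C4 1 and IgG 2 extended over most single genes. Of the 77 members with enough counts to be tested, 51 (66.2%) had their 2 lowest values in exactly these libraries, against 7.13% of all 11144 genes tested. This pair was chosen after the sums were seen, so the share is a description. It was 22 of 36 genes in complex I, 1 of 4 in complex II, 5 of 8 in complex III, 9 of 12 in complex IV and 14 of 17 in complex V. The highest value was in 15C4 3 for 29 members and in IgG 3 for 32. Over the 6 libraries the median Pearson correlation between pairs of members was 0.63 on log2(CPM + 1), with library composition shared by all pairs. Genes whose transcripts are shorter than 1000 bases, which include most members, held 15.0% of counts in 15C4 1 and 15.7% in IgG 2, against 16.48% to 19.03% in the other libraries. Without the members and the cytoplasmic ribosomal protein genes these shares were 11.9% in 15C4 1 and 12.7% in IgG 2, with 12.1% in 15C4 3 and 13.5% to 14.5% in the rest. The summed level of 84 cytoplasmic ribosomal protein genes was 26369 CPM for 15C4 1 and 22870 CPM for IgG 2, against 23062 to 31985 CPM in the others. The part of transcript length in the library pattern was not tested.

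No member passed the test between 15C4 and IgG. Of 84 members, 77 had enough counts to be tested by the quasi-likelihood test of edgeR, and 0 of them had an adjusted p below 0.05 over all genes (percent called among all genes 0). At an unadjusted p below 0.05 the count of members was also 0, against 2.58% of all genes. DESeq2 called 0 of 76 members with an adjusted p, against 0.252% of all genes. The limma-voom test called 0 of 77, and also 0% of all genes. The smallest unadjusted p of a member was 0.109 with edgeR, 0.101 with DESeq2 and 0.0902 with limma-voom. In the authors' deposited table, 0 of 82 members with an adjusted p were below 0.05, against 3.59% of all genes in that table, and the smallest adjusted p of a member was 0.296.

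Fold changes (15C4 over IgG, on the log2 scale) centred on 0. The median was 0.01 over the members and 0.01 over all genes tested, and 40 members were above and 37 below 0 (51.9% above, against 50.7% of all genes). With total counts as the only scaling, 30 were above and 47 below 0. The median there was -0.103 over the members and -0.075 over all genes. The balance rested on single libraries: 61 were above 0 without 15C4 1, 12 without 15C4 3, 21 without IgG 2 and 60 without IgG 3. Without these libraries the median of the members was 0.23, -0.25, -0.20 and 0.20 in that order. The median standard error (SE) of a fold change was 0.40 for members and 0.78 for all genes, which include many genes of lower count. Single fold changes lay below 0.5 in absolute value for 71 of the 77 members.

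**Figure D3:**
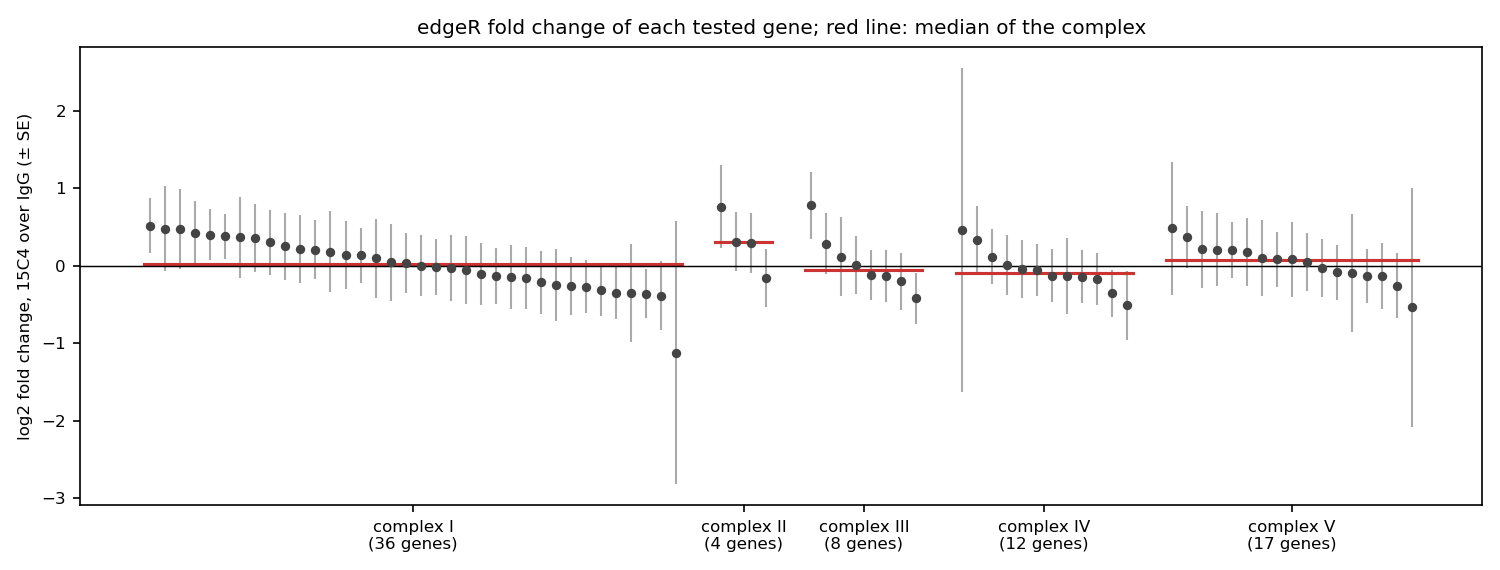
Log2 fold change of each tested member, 15C4 over IgG, with its SE from the edgeR test (vertical axis), ordered within complexes I to V along the horizontal axis, where red lines are the medians of the complexes. Most SE bars cross 0, and medians run from -0.09 for complex IV to 0.30 for complex II.

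Groups that did not overlap were also few. On TMM-scaled CPM, 2 of 77 members (2.60%) were separated, Ndufs4 with all 15C4 libraries higher and Cox7a2l with all 15C4 libraries lower. Among all genes the share was 9.50%, with 3.58% higher and 5.92% lower under 15C4. On unscaled CPM the separated members were Uqcr11 and Cox7a2l, both lower under 15C4, against 9.52% of all genes separated and 6.64% lower. With 1 library left out, separation is more frequent among all genes too. Without 15C4 1, 12 members (15.6%) were separated, against 24.2% of all genes. Without 15C4 2 it was 3 members (3.9%) against 21.7%, and without 15C4 3 it was 6 (7.79%) against 20.1%. Without IgG 1 it was 2 members (2.6%) against 15.5%, without IgG 2 it was 11 (14.3%) against 16.1%, and without IgG 3 it was 7 (9.09%) against 17.5%. In each of these settings the members' share lay below that of all genes.

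In complex I, 19 of 36 tested subunits were above and 17 below 0, with a median log2 fold change of 0.02. The smallest unadjusted p belonged to Ndufs1, the largest iron-sulphur subunit of the electron-carrying arm. It was at 256, 236 and 370 CPM under 15C4 and at 230, 167 and 250 CPM under IgG. 15C4 1 and 15C4 3 stood above all IgG libraries and 15C4 2 among them (log2 fold change 0.52, SE 0.36, edgeR unadjusted p = 0.183, adjusted p = 0.9997).

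Ndufs4, an accessory subunit whose loss causes a Leigh-like disease in mice, was at 523, 485 and 403 CPM under 15C4 and at 447, 323 and 377 CPM under IgG. The groups overlapped on this scale through 15C4 3 and IgG 1, and the log2 fold change was 0.38 (SE 0.29). The membrane-arm subunit Ndufb3 averaged 457 ± 101 CPM under 15C4 and 372 ± 60.1 CPM under IgG (± SD over 3 libraries each; 0.40, SE 0.33). On the other side of 0 were 3 subunits with the smallest p, all lower in mean under 15C4. Ndufa2 averaged 255 ± 44.0 CPM under 15C4 and 345 ± 79.2 CPM under IgG (-0.36, SE 0.32). Ndufs6, a zinc-binding subunit, averaged 166 ± 36.0 CPM under 15C4 and 223 ± 39.1 CPM under IgG (-0.35, SE 0.33). Ndufv3, a subunit of the NADH-oxidising module, averaged 286 ± 79.1 CPM under 15C4 and 381 ± 64.3 CPM under IgG (-0.31, SE 0.34; ± SD over 3 libraries each). Subunits of the same arm thus lay on both sides of 0, and no difference passed the test.

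Ndufa4 had the highest level per transcript length of all members, 5979 CPM per kb as the mean of 6 libraries. Named as a complex I subunit, it is now known as a subunit of complex IV. It was at 1392, 2519 and 5005 CPM under 15C4 and at 2832, 1592 and 3161 CPM under IgG. Its share of the complex I sum was 14.8% in 15C4 1 and 25.6% in 15C4 3, and 16.7% to 19.6% under IgG. 15C4 3 was the highest library and 15C4 1 the lowest, so that the 15C4 group enclosed the IgG group. Counted with complex IV, it made that complex sum to 11667 ± 3647 CPM under 15C4 and 12334 ± 2898 CPM under IgG (± SD over 3 libraries each; two-sided exact permutation p = 0.8). Complex I without it summed to 11249 ± 3267 CPM under 15C4 and 11008 ± 2677 CPM under IgG (two-sided exact permutation p = 0.9). The next highest levels of complex I per length were 2441 CPM per kb for Ndufb6 and 1462 CPM per kb for Ndufc2, both accessory membrane-arm subunits. The log2 fold change was 0.37 (SE 0.52) for Ndufa4, 0.47 (SE 0.51) for Ndufb6 and 0.36 (SE 0.44) for Ndufc2. Without 15C4 3 these became -0.33, -0.07 and -0.14.

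Complex II has no subunit encoded by mitochondrial DNA, so all of its parts were measured. Of its 4 genes, 3 had a log2 fold change above 0 and 1 below, with a median of 0.30. Sdha, the flavin-carrying catalytic subunit, was at 159, 211 and 311 CPM under 15C4 and at 276, 280 and 272 CPM under IgG. The IgG libraries agreed closely while the 15C4 libraries lay on both sides of them (-0.16, SE 0.37). Sdhb, the iron-sulphur subunit, was at 687, 852 and 1082 CPM under 15C4 and at 712, 501 and 1062 CPM under IgG (0.31, SE 0.38). It had the highest level of the complex per transcript length, 715 CPM per kb, against 70.5 CPM per kb for Sdhc, the lowest. Sdhc and Sdhd anchor the enzyme in the membrane. Sdhc was at 140, 129 and 246 CPM under 15C4 and at 70.3, 67.1 and 190 CPM under IgG. Both groups held 1 high library, numbered 3, and IgG 3 lay above 15C4 1 and 15C4 2 (0.76, SE 0.54, edgeR unadjusted p = 0.193, adjusted p = 0.9997). Without IgG 3 the log2 fold change of Sdhc was 1.47, and without 15C4 3 it was 0.32. Sdhd was at 335, 366 and 547 CPM under 15C4 and at 284, 299 and 516 CPM under IgG, again with library 3 highest in each group (0.29, SE 0.39).

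In complex III, 4 of 8 genes were above and 4 below 0, with a median of -0.06. Uqcrc1, a core protein on the matrix side, had the smallest unadjusted p of all members. It was at 150, 175 and 198 CPM under 15C4 and at 84.4, 73.4 and 168 CPM under IgG. IgG 3 lay within the 15C4 range and the other IgG libraries below it. The log2 fold change was 0.78 (SE 0.44, edgeR unadjusted p = 0.109, adjusted p = 0.9997), ranging from 0.55 without IgG 2 to 1.28 without IgG 3. The authors' deposited table gives Uqcrc1 a log2 fold change of -0.83 (there IgG over 15C4), a p of 0.0331 and an adjusted p of 0.296. It was the 1 member with a p below 0.05 there, against 9.31% of all genes with a p in the authors' deposited table. Its partner core protein Uqcrc2 averaged 193 ± 68.5 CPM under 15C4 and 192 ± 111 CPM under IgG (± SD over 3 libraries each; 0.12, SE 0.51). The core proteins thus had different fold changes, and the difference between them was not tested.

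Uqcr11, a small accessory subunit, was at 271, 333 and 332 CPM under 15C4 and at 409, 350 and 580 CPM under IgG. All 15C4 libraries were lower, and IgG 3 was farthest away (-0.42, SE 0.33, edgeR unadjusted p = 0.241). Without IgG 3 the log2 fold change was -0.15. Uqcrh, the hinge protein that helps cytochrome c to dock, averaged 441 ± 111 CPM under 15C4 and 547 ± 138 CPM under IgG (-0.20, SE 0.37). Uqcrfs1, the Rieske iron-sulphur protein, averaged 258 ± 50.5 CPM under 15C4 and 304 ± 40.2 CPM under IgG (-0.13, SE 0.33; ± SD over 3 libraries each). Per transcript length, Uqcrb was highest at 2640 CPM per kb, followed by Uqcr10 at 1343 and Uqcrq at 1143 CPM per kb. Uqcrb averaged 1495 ± 565 CPM under 15C4 and 1330 ± 251 CPM under IgG (± SD over 3 libraries each; 0.29, SE 0.40).

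**Figure D4:**
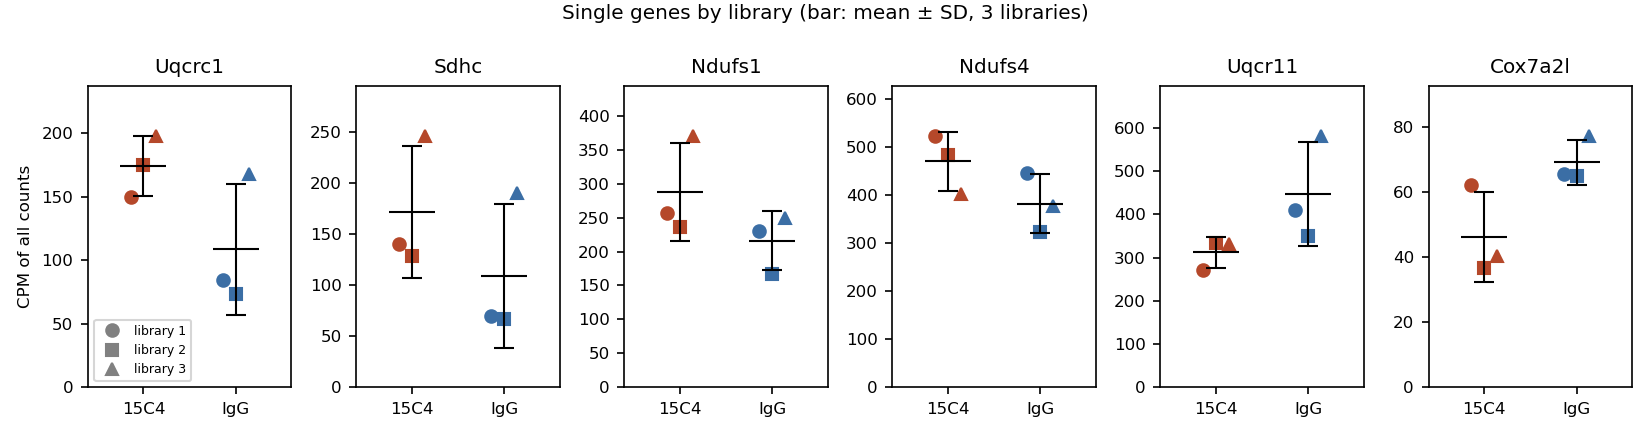
CPM of 6 members (vertical axes, each from 0), with 1 point per library, 15C4 left of IgG, and bars for the mean ± SD of 3 libraries. The groups overlap for Uqcrc1, Sdhc, Ndufs1 and Ndufs4, and the 15C4 libraries lie below all IgG libraries for Uqcr11 and Cox7a2l.

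In complex IV, 4 of 12 tested genes were above and 8 below 0, with a median of -0.09. Cox7a2l encodes a factor that joins complexes III and IV into supercomplexes, and C57BL/6 mice are known to carry a shortened form of it. It was at 62.1, 36.6 and 40.2 CPM under 15C4 and at 65.5, 64.9 and 77.1 CPM under IgG. All 15C4 libraries were lower, 15C4 1 by less than 3 CPM. The log2 fold change was -0.51 (SE 0.45, edgeR unadjusted p = 0.288, adjusted p = 0.9997) and stayed between -0.69 and -0.37 with 1 library left out. Of its 50-base words, 17.8% also occur in a pseudogene transcript, so part of its reads may be uncertain.

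Cox8a averaged 483 ± 50.8 CPM under 15C4 and 660 ± 146 CPM under IgG (-0.36, SE 0.30), and Cox6a1 397 ± 85.5 CPM under 15C4 and 482 ± 84.8 CPM under IgG (-0.17, SE 0.33; ± SD over 3 libraries each). Both are general isoforms of small structural subunits. Cox5a, a matrix-side subunit, averaged 780 ± 226 CPM under 15C4 and 668 ± 274 CPM under IgG (0.33, SE 0.44), and Cox7c 695 ± 193 CPM under 15C4 and 691 ± 113 CPM under IgG (0.12, SE 0.35; ± SD over 3 libraries each). The highest levels per length were 2530 CPM per kb for Cox7b, 2442 for Cox6c and 1381 for Cox7a2, all small transmembrane subunits. Cox7b was at 1582, 2621 and 2724 CPM under 15C4 and at 3228, 2380 and 2659 CPM under IgG. 15C4 1 lay apart below the others, and the groups overlapped (-0.14, SE 0.34).

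In complex V, 10 of 17 genes were above and 7 below 0, with a median of 0.08. Atp5c1, which encodes the rotating gamma subunit, averaged 934 ± 283 CPM under 15C4 and 779 ± 265 CPM under IgG (0.38, SE 0.40). Atp5a1, which encodes the alpha subunit of the catalytic head, averaged 760 ± 174 CPM under 15C4 and 712 ± 184 CPM under IgG (0.20, SE 0.36; ± SD over 3 libraries each). The beta subunit gene Atp5b, named here as the partner of Atp5a1 after its values were seen, was at 1025, 1390 and 1348 CPM under 15C4 and at 1056, 940 and 1809 CPM under IgG (0.09, SE 0.36). Alpha and beta thus both lay within 1 SE of 0. Atp5k, a subunit at the dimer interface, averaged 166 ± 55.6 CPM under 15C4 and 216 ± 56.4 CPM under IgG (-0.26, SE 0.42). Atp5e, the small epsilon subunit, averaged 306 ± 68.9 CPM under 15C4 and 354 ± 104 CPM under IgG (-0.13, SE 0.35; ± SD over 3 libraries each). Per length, the highest levels were 2495 CPM per kb for Atp5g3, 1676 for Atp5j and 783 for Atp5e.

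The Atp5 symbols also take in Atp5s and Atp5sl, which are not structural subunits. Atp5s, a coupling factor B homologue, was at 7.62, 81.5 and 92.6 CPM under 15C4 and at 32.5, 40.1 and 71.5 CPM under IgG. Its 15C4 libraries lay on both sides of all IgG libraries (0.48, SE 0.86). Atp5sl, now Dmac2, which is known from complex I assembly, was at 0.476, 0.817 and 8.13 CPM under 15C4 and at 5.41, 1.45 and 8.48 CPM under IgG (-0.54, SE 1.54). Its counts were 4, 16 and 52 under 15C4 and 28, 14 and 99 under IgG, the lowest level per length among the tested members at 2.14 CPM per kb.

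Complexes IV and V have subunits with alternative genes, some of them limited to certain tissues. Isoforms of other tissues were nearly or entirely undetected. Cox6a2, the muscle isoform, and Cox6b2, Cox7b2 and Cox8c, known from testis, had 0 counts in all 6 libraries. A count of 0 allows up to 3 counts, or 0.153 CPM in the deepest and 0.580 CPM in the shallowest library, and covers counting error only. Cox4i2, the isoform known from lung, hypoxia and pericytes, had 1 count in 15C4 2, while its general counterpart Cox4i1 had 46676 counts over the 6 libraries. Cox4i1 was at 576, 856 and 581 CPM under 15C4 and at 734, 580 and 1027 CPM under IgG (-0.13, SE 0.34). Ndufa4l2, a hypoxia-induced paralogue of Ndufa4 that is also known from pericytes, had 3 counts, all in IgG 1. Markers of pericytes and smooth muscle amounted to 57.2 to 82.0 CPM under 15C4 and 10.5 to 102 CPM under IgG, with 9 of 10 markers detected and Higd1b at 0. No comparison of these 2 isoforms could be made at this depth.

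Isoforms known from heart, skeletal muscle and brown fat were detected at a trace level. Cox7a1 had 0, 93 and 47 counts under 15C4 and 18, 0 and 73 under IgG. It made up at most 1.03% of Cox7a1 and Cox7a2 together per transcript length. It was at 0 in 15C4 1 and IgG 2, the libraries lowest for the whole family, and its log2 fold change of 0.46 had an SE of 2.09. Cox8b had 0, 15 and 0 counts under 15C4 and 3, 0 and 22 under IgG, at most 0.350% of the Cox8 genes. Skeletal muscle markers summed to 0.0511 to 0.952 CPM under 15C4 and 1.24 to 5.02 CPM under IgG, with 4 of 7 detected and Tnnt3, Mb and Actn3 at 0. Of 5 brown adipocyte markers, Ucp1, Adipoq and Plin1 had 0 counts, and Cidea was at 0.119 CPM in 15C4 1, 0.0511 CPM in 15C4 2 and 0 in the other libraries. Fabp4, the fatty acid carrier that capillary endothelium also expresses, was at 326, 2170 and 513 CPM under 15C4 and at 1140, 942 and 111 CPM under IgG. The part of other cells in these traces was not tested. The general isoforms Cox6a1, Cox6b1, Cox7b, Cox7a2 and Cox8a thus carried at least 98.97% of their families in each library. Cox6b1 was at 243, 625 and 711 CPM under 15C4 and at 567, 435 and 880 CPM under IgG (-0.13, SE 0.49).

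The c subunit, which forms the rotor ring of the ATP synthase, is encoded by Atp5g1, Atp5g2 and Atp5g3, whose mature proteins are identical. Atp5g3 supplied nearly all of this transcript pool per length, 96.4%, 97.2% and 97.3% under 15C4 and 97.4%, 96.7% and 96.3% under IgG. The means were 97.0 ± 0.499% under 15C4 and 96.8 ± 0.590% under IgG (± SD over 3 libraries each; two-sided exact permutation p = 0.9). The difference of 0.151 percentage points changed to -0.110 without IgG 3 and 0.471 without IgG 1. Atp5g1 made up 2.11 ± 0.392% under 15C4 and 2.12 ± 0.494% under IgG, and Atp5g2 0.946 ± 0.299% under 15C4 and 1.08 ± 0.236% under IgG (two-sided exact permutation p = 0.9 and 0.7). The level of Atp5g3 itself was at 1076, 1868 and 2538 CPM under 15C4 and at 2047, 1121 and 2107 CPM under IgG. The shares depend on the lengths used, 2675.5 bases for Atp5g1, 586 for Atp5g2 and 718.5 for Atp5g3. Without length scaling, the mean CPM over 6 libraries was 145 for Atp5g1, 14.4 for Atp5g2 and 1793 for Atp5g3. Of the 50-base words of Atp5g2, 38.3% also occur in transcripts of other genes, against 0 for Atp5g3. For Atp5g1 this was 11.1%, spread over 366 genes.

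**Figure D5:**
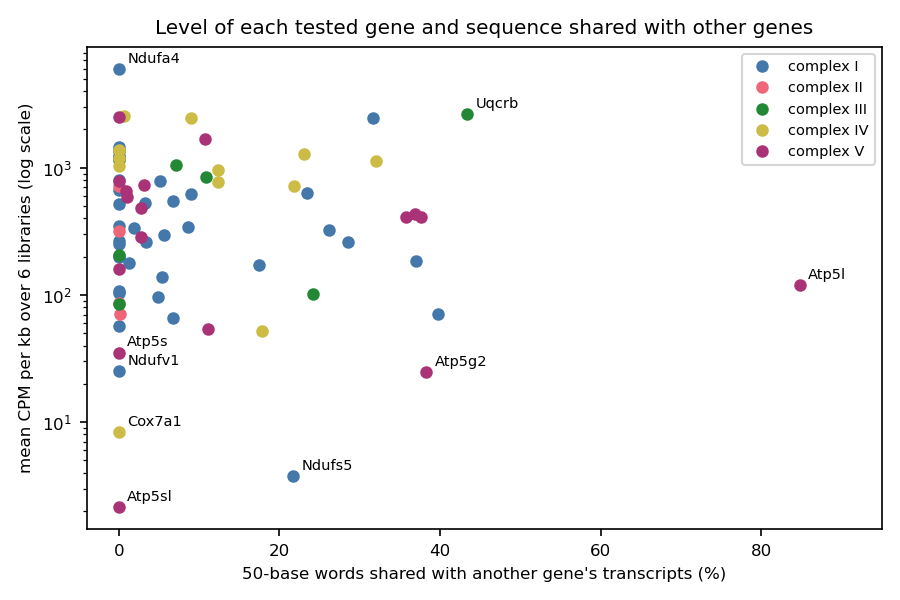
Mean level of each tested member over 6 libraries in CPM per kb of transcript (vertical log axis) against the percentage of its 50-base words that also occur in transcripts of another gene (horizontal axis), coloured by complex. Atp5l stands alone at 84.8% shared, and Ndufs5 is low at 21.7% shared.

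Levels within a complex differed widely. Per transcript length, all tested members spanned 10.1-fold in complex II, 30.9-fold in III, 305-fold in IV, 1164-fold in V and 1595-fold in I. The low ends were Ndufs5 in complex I, Cox7a1 in IV and Atp5sl in V. Without Ndufa4, Cox7a1, Cox7a2l, Atp5s, Atp5sl, Atp5g1 and Atp5g2, a choice made after the values were seen, the span was 651-fold in complex I, 3.51-fold in IV and 20.8-fold in V. Ndufs5, a required subunit of complex I, had 20, 35 and 0 counts under 15C4 and 18, 14 and 51 under IgG, or 3.75 CPM per kb on average (log2 fold change -1.12, SE 1.70). Of its 50-base words, 21.7% occur in 1 pseudogene. Words were compared on either strand with the transcripts of all other genes, pseudogenes or not. On this measure, 46 of 84 members shared at least 1 word with another gene, and 17 shared 20% or more. The share was 84.8% for Atp5l, with 12 pseudogenes among 14 genes, and 43.4% for Uqcrb, with 4 pseudogenes among 5 genes. It was 31.6% for Ndufb6, with 1 gene and 0 pseudogenes. Reads of such genes could be split or dropped by the counting, and their levels are therefore uncertain. Ndufb6 overlaps exons of a gene on the opposite strand over 39.0% of its exon length, Atp5o over 35.6% and Ndufa13 over 30.0%. Such overlaps can be among the shared words, so the 2 measures are not independent. The strand setting of the counting is not given in the sources used here, so reads of such overlaps cannot be told apart. The catalytic NADH-oxidising subunit Ndufv1 was also low, at 25.1 CPM per kb, with 0% of its words shared.

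No other gene of the pathway passed the test. Of 118 genes on 7 lists, 115 were tested, 58 were above and 57 below 0. With edgeR 0 passed, and also 0% of all genes. At an unadjusted p below 0.05 the count was again 0, against 2.58% of all genes. DESeq2 and limma-voom also called 0 of 115, against 0.252% and 0% of all genes. Of complex I assembly factors, 9 were above and 5 below 0 (median 0.42). The smallest p was that of Tmem70, better known for ATP synthase assembly, at 110, 85.5 and 462 CPM under 15C4 and 92.2, 69.3 and 123 CPM under IgG. Only 15C4 3 stood out (1.36, SE 0.69). Ndufaf5 averaged 25.4 ± 6.33 CPM under 15C4 and 57.8 ± 31.6 CPM under IgG (-1.08, SE 0.61; ± SD over 3 libraries each). Assembly factors of complexes II to V had 11 genes above and 18 below 0 (median -0.07). Cox18, an insertase for a complex IV core subunit, was at 7.74, 1.18 and 1.10 CPM under 15C4 and at 25.1, 14.4 and 9.26 CPM under IgG. All 15C4 libraries were lower (-2.28, SE 1.16, edgeR unadjusted p = 0.0831, adjusted p = 0.9997), a separation in this direction seen in 6.64% of all genes. Bcs1l, a complex III assembly factor, was at 4.17, 1.69 and 0 CPM under 15C4 and at 19.7, 17.8 and 3.00 CPM under IgG (-2.77, SE 1.61).

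Cytochrome c itself (Cycs) was at 221, 533 and 1055 CPM under 15C4 and at 619, 305 and 781 CPM under IgG, again lowest in 15C4 1 and IgG 2 (0.23, SE 0.61). Ndufab1, the acyl carrier subunit that the naming rule leaves out, was at 73.9, 123 and 92.3 CPM under 15C4 and at 110, 66.9 and 167 CPM under IgG (-0.15, SE 0.47). The list of both with Cyc1 had 1 gene above and 2 below 0. Genes of the mitochondrial ribosome had 20 above and 10 below 0 (median 0.14), with the smallest p for Mrps2 (0.58, SE 0.47) and Mrps10 (0.61, SE 0.50). Import and inner membrane genes had 12 above and 9 below 0 (median 0.11). Hspe1 and Hspd1, the matrix chaperonin pair, had the smallest p there, at 0.80 (SE 0.49) and 0.56 (SE 0.47). Both lists were lowest in the libraries that were low for the subunits. Mitochondrial ribosome genes summed to 2049, 2448 and 3946 CPM under 15C4 and to 2792, 1997 and 3175 CPM under IgG. Import and inner membrane genes summed to 6146, 7854 and 10130 CPM under 15C4 and to 7413, 5638 and 9044 CPM under IgG.

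Regulators of mitochondrial biogenesis had another order of libraries. Their 13 detected genes summed to 780, 483 and 653 CPM under 15C4 and to 807, 813 and 655 CPM under IgG, and 5 were above and 8 below 0 (median -0.23). Much of this sum was Ppargc1a, the highest of the list in every library and named after its values were seen. It was at 340, 159 and 436 CPM under 15C4 and at 405, 377 and 206 CPM under IgG. Yy1 averaged 105 ± 54.2 CPM under 15C4 and 168 ± 32.9 CPM under IgG (-0.62, SE 0.47), and Polg, the mitochondrial DNA polymerase, 11.4 ± 3.67 CPM under 15C4 and 22.3 ± 6.87 CPM under IgG (-0.89, SE 0.73; ± SD over 3 libraries each). All 5 genes of the list of supercomplex, inhibitor and calcium uptake genes were below 0 (median -0.59), and none passed. Higd1a, a hypoxia-induced factor that binds complex IV, was at 685, 581 and 203 CPM under 15C4 and at 703, 919 and 754 CPM under IgG (-0.64, SE 0.41). All 15C4 libraries were lower, as for 6.64% of all genes, with 15C4 3 farthest away and 15C4 1 close to IgG 1. Atpif1, the inhibitor of the ATP synthase, averaged 420 ± 88.8 CPM under 15C4 and 573 ± 126 CPM under IgG (-0.36, SE 0.32; ± SD over 3 libraries each). The list summed to 1176, 1230 and 609 CPM under 15C4 and to 1490, 1461 and 1527 CPM under IgG.

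Promoters of respiratory chain genes are known for binding sites of NRF1, an activator of mitochondrial genes, which the naming rule did not use. RefSeq promoter sequences (build GRCm38.p6, 250 bases before to 50 after the start) were matched for 69 of 84 members. The NRF1 letters GCGCA, any base, GCGC, searched on both strands, occurred in 17 of them (24.6%), against 12.3% of the 8975 genes tested and 5.19% of all 27025 genes with a promoter. By complex this was 7 of 32 promoters in I, 2 of 3 in II, 1 of 5 in III, 1 of 13 in IV and 6 of 16 in V. The YY1 letters AANATGGCG occurred in 11 members (15.9%), against 6.52% of tested genes. All 11 were in complexes I (7) and V (4). In the 250 bases before the start alone, the YY1 letters occurred in 4 members (5.8%), against 2.71% of tested genes, and the NRF1 letters in 13 (18.8%), against 9.99%. The ETS letters CCGGAAG, bound by GABPA, were found in 23.2% of members and 21.7% of tested genes, and the hypoxia core ACGTG in 27.5% and 30.3%. The ERRalpha letters TCAAGGTCA occurred in 2 members (2.9%), against 0.301% of tested genes, and in 1 before the start. A match is a run of letters and does not show binding. The following stretches upstream of the start are shown because they carry the letters searched for, in 1 or 2 genes per complex. Capitals mark the NRF1 letters or, for Uqcr11, the ETS letters, and each is written in the direction of its gene.
Ndufa11 (chr17:56717687-56717726, plus strand): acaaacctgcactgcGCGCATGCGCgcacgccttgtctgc
Ndufs5 (chr4:123718260-123718299, minus strand): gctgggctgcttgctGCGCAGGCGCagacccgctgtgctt
Sdha (chr13:74350314-74350353, minus strand): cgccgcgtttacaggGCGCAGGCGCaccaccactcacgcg
Sdhd (chr9:50603904-50603943, minus strand): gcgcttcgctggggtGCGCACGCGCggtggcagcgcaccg
Uqcr11 (chr10:80406866-80406902, minus strand): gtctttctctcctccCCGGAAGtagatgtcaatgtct
Cox6a1 (chr5:115349096-115349135, minus strand): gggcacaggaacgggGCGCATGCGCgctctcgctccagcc
Atp5h (chr11:115420036-115420075, minus strand): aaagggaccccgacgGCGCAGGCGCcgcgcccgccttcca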

How the data were processed

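RNA of the 6 libraries was amplified as cDNA by PCR and made into libraries by Nextera XT tagmentation, as the labels' protocols state. The authors deposited a raw count per gene symbol for each library. The submitters' processing notes name fastp, STAR 2.5b, featureCounts and DESeq2, along with mm10 and mm9, without saying which build was used for what. Annotation and strand setting are not stated in what was used. For the whole series, the authors' deposited table holds the same counts for all 84 members, a log2 fold change of IgG over 15C4 per the file headers, and for each gene a p-value, raw and adjusted. Its 6 columns of normalised values were not used.

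Counts of the whole table entered edgeR 4.0.16 under R 4.3.3 (quasi-likelihood test), with TMM factors, filterByExpr (minimum count 10, minimum total 15) and treatment as the only term. Adjusted p is by Benjamini-Hochberg over all 11144 genes, with a threshold of 0.05. SE is the absolute log2 fold change over the square root of the F statistic. limma 3.58.1 and DESeq2 1.42.0 were alternatives. The tests were run on simulated counts, where at a low spread they recovered the changes put in. At the common spread estimated over all genes, edgeR called few of them. Transcript lengths (median of protein-coding transcripts), exon overlap and shared 50-base words come from GENCODE M21 on GRCm38, promoters from RefSeq. Members and lists were chosen with earlier results of these data known. Named genes are the 3 highest per length and the 3 smallest p per direction in each complex. All of complex II, the isoforms and 2 genes per other list were also named. Ndufa11, Ndufa13, Ndufs5, Ndufv1, Atp5b, Atp5h, Atp5l, Atp5o, Cyc1 and Ppargc1a were named beside them after their values were seen. Floors reflect counting error alone, because reads amplified by PCR and lacking molecular identifiers do not each stand for 1 molecule. A planned comparison of isoform proteins was not run.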

Additional observations from a re-analysis of the deposited data

How the results depend on the processing

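No member was called in any of the alternatives run. Among all genes, the count called was 0 with edgeR, 1 without a filter on low counts and 26 with DESeq2. In simulated counts at the common spread, DESeq2 called 55 changed and 27 unchanged genes, against 3 and 0 with edgeR. Each tool had its own random draw there, and every gene had the same spread, so these counts do not rank the tools. The cause of the difference in calls was not tested. Deviations from the group means correlated at -0.052, 0.065 and 0.105 for libraries sharing numbers 1 to 3. Libraries of unlike number gave -0.122 to 0.085. With 3 libraries a group, this cannot decide if the shared numbers pair the libraries. With the replicate as a block 0 members were called (smallest edgeR unadjusted p 0.0608, member median -0.03). Without IgG 3 the smallest edgeR unadjusted p of a member was 0.0195, and 2 of 77 members were below 0.05. The share of all genes below 0.05 in that setting is not given here. The number of members whose groups did not overlap ran from 2 to 12 with 1 library left out, where 15.5% to 24.2% of all genes did not overlap. Against the test reported, limma-voom and the replicate block moved the median of all genes by -0.15 and -0.16, so fold changes there are to be read against that shift.

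With 43 of 77 members above 0 under RLE size factors and 34 under limma-voom, against 40 in the test reported, some fold changes changed sign, including that of Atp5s, which was 0.48 in the test reported. Atp5j was 0.01 with RLE size factors and with DESeq2. Uqcr10 was -0.1 with total counts, -0.03 with limma-voom and -0.01 with the replicate block. Atp5g1 was -0.02 with total counts, and Atp5s -0.17 with limma-voom and -0.06 with the replicate block. The cause was not tested.

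Leaving out 1 library at a time moved the log2 fold change of these named genes across 0. The range was -0.02 to 0.42 for Atp5a1, -0.34 to 0.13 for Atp5e, -0.35 to 0.54 for Atp5g1, -0.3 to 0.11 for Atp5g2, -0.21 to 0.48 for Atp5g3, -0.24 to 0.22 for Atp5j. It was -0.51 to 0.03 for Atp5k, -0.03 to 1 for Atp5s, -2.92 to 0.08 for Atp5sl, -0.35 to 0.15 for Cox4i1, -0.48 to 0.24 for Cox6b1, -0.24 to 0.18 for Cox6c. Ranges were also -0.37 to 1.4 for Cox7a1, -0.29 to 0.16 for Cox7a2, -0.34 to 0.11 for Cox7b, -0.09 to 0.37 for Cox7c, -0.33 to 0.74 for Ndufa4, -0.07 to 0.85 for Ndufb6. There were also ranges of -0.14 to 0.65 for Ndufc2, -0.53 to 0.09 for Sdha, -0.04 to 0.66 for Sdhd, -0.33 to 0.23 for Uqcr10, -0.3 to 0.72 for Uqcrc2, -0.36 to 0.05 for Uqcrfs1. Further ranges were -0.44 to 0.03 for Uqcrh, -0.31 to 0.04 for Uqcrq.

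The median SE of a member's log2 fold change was 0.40. With 3 libraries a group, differences well above that size also did not pass, such as 0.78 for Uqcrc1 (SE 0.44, edgeR unadjusted p = 0.109). In simulated counts at the common spread of all genes, edgeR called few of the changes put in. Members had a lower median SE than all genes (0.40 against 0.78), and their own spread was not simulated. The lack of calls does not show that levels were alike. The planned comparison of isoform proteins was not run.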
